A study of Mus musculus with 2 samples.

Results

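The data describe the nuclear-encoded genes of oxidative phosphorylation in IL-10-producing CD4+ T cells. They were chosen by the start of their symbol (Nduf, Uqcr, Atp5, Sdha to Sdhd, and Cox4 to Cox8). This rule takes 96 of the 28009 genes of the count tables. Of these, 38 were counted with complex I, 4 with complex II, 8 with complex III, 17 with complex IV and 15 with complex V. The other 14 were assembly factors and related genes. The rule uses names only and no measured value, though it was set with earlier results of these data known. The cells came from the spleen and from the small intestine (SI) of IL-10eGFP Foxp3mRFP double reporter mice, which had been given anti-CD3 (clone 2C11) i.p. on alternate days and were killed hours after the last injection. IL-10eGFP-positive CD4+ T cells were sorted, Foxp3+ cells included, and 1 library was made per tissue on the 10x Genomics Chromium platform. All mice carried both reporters and all received anti-CD3, so neither an untreated group nor cells without IL-10 are part of the comparisons. How many mice were pooled per library was not given in the sources used here.

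With 1 library per tissue there was no replicate, and no test was possible. Square brackets give exact 95% intervals, which cover counting error only, and a difference between the tissues is a difference between 2 libraries. The spleen library had 1738 cells and 11103530 UMIs (unique molecular identifiers, each marking 1 captured RNA molecule), and the SI library 1474 cells and 5693395 UMIs. A filter on UMIs, genes and mitochondrial share left 1648 and 1339 cells, dividing cells included, with medians of 5728 and 3756 UMIs per cell. The removed cells were 90 in the spleen, all with a high mitochondrial share, and 135 in the SI, of which 127 had one. No barcode was shared between the libraries. The markers of T cells had 3627 and 4502 counts per 1000000 UMIs (CPM) in sum over 4 genes, all of them found. Markers of B cells, plasma cells, NK cells, epithelium and erythroid cells had at most 38.1 CPM in sum in either library. The 6 genes listed for macrophages and dendritic cells (Lyz2, Csf1r, Cd68, Adgre1, Itgax and Cst3) had 173 CPM in the spleen and 212 CPM in the SI. Of these, Csf1r had no UMI in the spleen, and Lyz2 and Adgre1 had none in the SI. Cd8a and Cd8b1 had 12.8 CPM in the spleen, with Cd8a at 0, and 371 CPM in the SI. The list for handling stress held 7 genes, Fos, Fosb, Jun, Junb, Egr1, Hspa1a and Hspa1b. They had 1136 CPM in the spleen and 3162 CPM in the SI, and their part in the tissue differences was not tested. All mice had received anti-CD3, and whether handling or this stimulus set these levels was not tested.

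Oxidative phosphorylation makes ATP at the inner mitochondrial membrane. Complexes I and II take electrons from NADH and succinate, complex III passes them to cytochrome c and complex IV to oxygen, and complex V, the ATP synthase, uses the proton gradient that results. Most subunits are encoded in the nucleus and imported. A small core of complexes I, III, IV and V is encoded by the mitochondrial genome (the mt- genes), while complex II is wholly nuclear. T cells are known to increase both respiration and glycolysis when they are activated and divide.

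The subunits of the 5 complexes together took 2.49% of all UMIs in the spleen and 2.09% in the SI. The 13 mt- protein genes took 2.42% and 2.01%. In the spleen, complex I had 0.764% of the UMIs, complex V 0.746%, complex IV 0.63%, complex III 0.298% and complex II 0.0569%. In the SI these shares were 0.631%, 0.589%, 0.569%, 0.249% and 0.0482%. The order of the first 3 depends on Ndufa4, which its symbol places in complex I while its protein is known as a subunit of complex IV. With Ndufa4 in complex IV, complex I had 0.711%, complex IV 0.683% and complex V 0.746% in the spleen, and 0.600%, 0.599% and 0.589% in the SI. In single cells the subunit share had a median of 2.36% (interquartile range 2.10 to 2.68%) in the spleen and 1.98% (interquartile range 1.76 to 2.26%) in the SI. The interquartile ranges of the tissues thus overlapped.

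A UMI counts 1 molecule whatever its length, so levels of different genes can be set side by side without division by length. Cox4i1, a nuclear-encoded subunit of complex IV, was the most abundant member, with 1039 CPM in the spleen and 1067 CPM in the SI. Uqcrh, the hinge protein of complex III, had 896 and 966 CPM, and Cox8a, a small complex IV subunit, 892 and 956 CPM. These 3 genes were close to level between the tissues.

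Of complex IV, Cox6c (735 and 644 CPM) and Cox7c (730.2 and 653 CPM) came next. In complex III, Uqcrb (423 and 310.3 CPM) and Uqcr10 (399 and 276 CPM) followed Uqcrh. The top 3 members of complex III held 57.7% of its UMIs in the spleen and 62.4% in the SI. Complex V was more even, with 30.3% and 31.8% in its top 3. There Atp5e, the epsilon subunit, had 799 and 619 CPM. Atp5l, subunit g of the membrane part, had 763 and 773 CPM. Atp5b, the catalytic beta subunit, had 696 and 446 CPM, and Atp5d, the delta subunit, 437 and 485 CPM.

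The most abundant members of complex I were Ndufa13 (546 and 586 CPM) and Ndufa3 (408 and 359 CPM), both accessory subunits. Ndufa4 had 530.4 CPM in the spleen and 304 CPM in the SI. The least abundant complex I subunits with UMIs were Ndufs1 (43.1 and 38.5 CPM) and Ndufv1 (66.2 and 52.9 CPM), both of the NADH-oxidising arm. In complex II, Sdhb, the iron-sulfur subunit, had 256 and 218 CPM. Sdha, the flavoprotein, had 148 and 132 CPM, and Sdhd, a membrane anchor, 103 and 78.4 CPM.

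Where a subunit has tissue-specific isoforms, the broadly expressed form carried nearly all UMIs. Cox4i2, the hypoxia-linked partner of Cox4i1, had no UMI in either library. Neither had Cox7b2, Cox8c or Ndufa4l2. A count of 0 was taken to allow a level of up to 3 counts, which is 0.278 CPM in the spleen and 0.552 CPM in the SI. Cox6a2, the heart and muscle form, had 0.278 CPM in the spleen and no UMI in the SI, while Cox6a1 had 467 and 318 CPM. Cox6b2, the testis form, had 1.39 and 2.21 CPM beside 709.7 and 615 CPM of Cox6b1. Cox8b, also a muscle form, had no UMI in the spleen and 0.184 CPM in the SI.

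Cox7a1, the muscle form of subunit 7a, had 1.76 CPM in the spleen and 4.79 CPM in the SI. Its log2 ratio of spleen over SI was -1.44 [-2.38, -0.53], on 19 and 26 UMIs. The ubiquitous Cox7a2 had 429 and 335 CPM. Cox7a2l, a related factor that joins complexes III and IV into supercomplexes, had 485 and 495 CPM. The 3 genes of the c ring of complex V, which encode the same mature protein, were all in use. Atp5g2 had 451 and 343 CPM, Atp5g3 350.2 and 227 CPM and Atp5g1 343 and 182 CPM. In all, 91 members had a UMI in each library and 4 had none in either. Many of these genes have near-identical processed pseudogenes, and how far reads shared with them were lost was not tested.

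**Figure D1:**
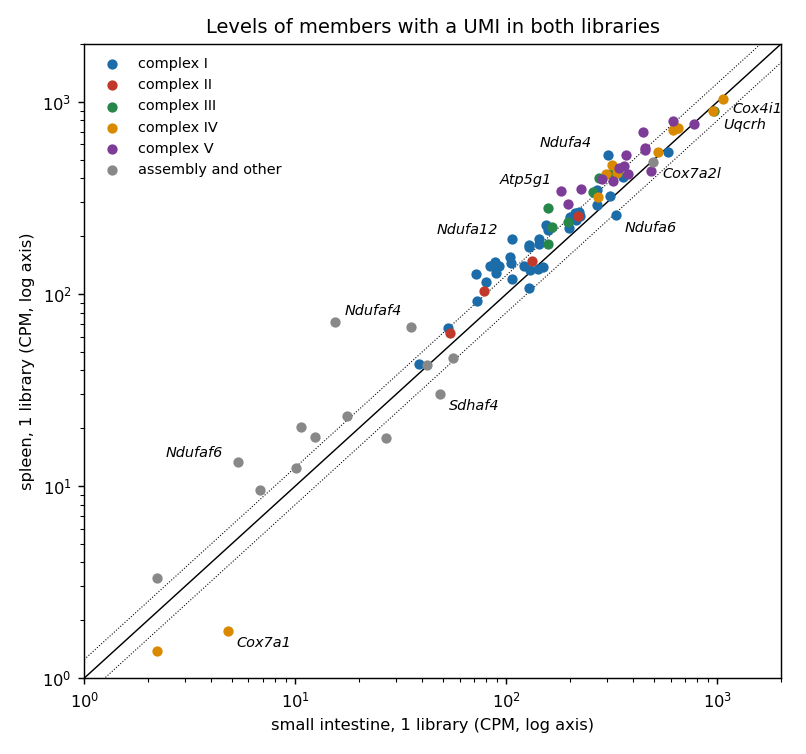
Level of each member with a UMI in both libraries, in counts per 1000000 UMIs (CPM) on log axes, in the SI (horizontal) and in the spleen (vertical), 1 library each. The solid line marks equal levels and the dotted lines a ratio of 5 to 4 either way. Most points lie above the solid line, Ndufaf4 farthest, while abundant members such as Cox4i1 and Uqcrh lie on it or just below.

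The first comparison asked how cells of the spleen differed from cells of the SI. The subunit share was higher in the spleen, with a log2 ratio of 0.26 [0.25, 0.27], or 1.20-fold. All 5 complexes had a higher share in the spleen. The log2 ratio was 0.34 [0.32, 0.36] for complex V, 0.28 [0.26, 0.30] for complex I, 0.26 [0.23, 0.29] for complex III, 0.24 [0.17, 0.31] for complex II and 0.15 [0.13, 0.17] for complex IV. The mt- genes were higher by a similar ratio, 0.27 [0.26, 0.28]. The subunit share also differed within the cells that had no UMI of 15 cycle genes, where the log2 ratio was 0.17. The spleen cells were also deeper, with medians of 5728 and 3756 UMIs per cell, and the subunit share rose with depth in both libraries. In bin 2 of 5 bins of spleen cells ordered by UMIs, the median was 4416, and 32618 of 1442009 UMIs were of subunits. In bin 4 of the SI, of like depth at a median of 4426.5, the count was 24464 of 1190623. The part of depth in the tissue ratio was not tested.

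A gene was read in a comparison if at least 50 UMIs were expected in each group, and was counted as higher or lower from a ratio of 5 to 4 on (0.32 on the log2 scale). The count used no interval, so counting error takes scarce genes past this ratio more easily than abundant ones. Of the 86 members read, 45 were higher in the spleen, while 35.5% of all 7163 genes read were. Only 3 members were lower in the spleen, against 29.8% of all genes read. The median log2 ratio was 0.33 over the members and 0.059 over all genes. Relative to that median of all genes, 36 members were higher and 4 lower, beside 32.3% and 32.9% of all genes. From a ratio of 3 to 2 on, 14 members were higher and 2 lower, beside 23.5% and 18.6% of all genes. In complex I, 20 of the 37 members read were higher and 1 lower. In complex V, 10 of 15 were higher, in complex III 5 of 8, in complex IV 3 of 10 and in complex II 1 of 4, with none lower. The abundant members differed less than the scarce ones. Of the 74 subunits read, the 18 with the highest levels had a median log2 ratio of 0.18 and the 18 with the lowest levels 0.37. Over all genes read, the 1790 with the highest levels also had a median of 0.18, and the 1790 with the lowest 0.034. These groups were cut within each set, so the subunits and the genes at large were not matched in level.

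Among the members read, the 4 farthest to the side of the spleen were assembly factors. Ndufaf4, a complex I assembly factor, had 71.3 CPM in the spleen and 15.5 CPM in the SI, a log2 ratio of 2.20 [1.88, 2.55]. Ndufaf6, another complex I assembly factor, had 13.3 and 5.34 CPM, a log2 ratio of 1.32 [0.74, 1.95]. Ndufaf2 followed with 0.93 [0.51, 1.38]. Sdhaf1, which helps to load the iron-sulfur subunit of complex II, had 67.2 and 35.4 CPM, a log2 ratio of 0.93 [0.70, 1.16]. These 4 genes were low in both tissues.

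Among the subunits, Atp5g1 was farthest to the side of the spleen, with a log2 ratio of 0.92 [0.82, 1.02]. The other c ring genes were closer to level, at 0.63 [0.53, 0.72] for Atp5g3 and 0.39 [0.32, 0.47] for Atp5g2. The part of Atp5g1 in the c ring messages was thus larger in the spleen library by more than counting error, since the intervals of the 3 genes did not overlap. Spread between mice was not measured. Ndufa4 had a log2 ratio of 0.80 [0.72, 0.88].

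On the other side, Sdhaf4, a complex II assembly factor, had 30.3 CPM in the spleen and 48.2 CPM in the SI, a log2 ratio of -0.67 [-0.91, -0.43]. Atp5sl, which despite its symbol is known to act in complex I assembly, had -0.59 [-0.91, -0.27]. Ndufa6, an accessory subunit of the matrix arm of complex I, had 256 and 331 CPM, a log2 ratio of -0.37 [-0.46, -0.28]. Of the 74 subunits read, it was the only one lower by the fold in the spleen. Sdhaf2, which attaches the flavin of Sdha, had -0.28 [-0.49, -0.066], and Ndufa10 -0.25 [-0.39, -0.12]. Sdhaf1 and Sdhaf4, both assembly factors of complex II, thus lay on opposite sides.

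The denominator also differed. Genes of cytosolic ribosomal proteins took 26.6% of the UMIs in the spleen and 20.1% in the SI. Over the UMIs left without these and without the mt- genes, the subunit log2 ratio was 0.39, with 59 members higher and 2 lower, beside 42.8% and 23.5% of all genes.

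Genes of mitochondrial translation and import differed more between the tissues than the subunits did. Beside the counts below, 35.5% of all genes read were higher in the spleen and 29.8% lower. Genes of mitochondrial ribosomal proteins had a summed log2 ratio of 0.52 [0.50, 0.54], and 58 of 74 read were higher in the spleen and 1 lower. They ranged from -0.35 [-0.53, -0.16] for Mrpl9 to 2.51 [2.12, 2.92] for Mrps18b. Genes of mitochondrial import had 0.65 [0.61, 0.68], with 15 of 21 higher and 0 lower, from -0.04 [-0.21, 0.13] for Timm17b to 2.68 [2.14, 3.27] for Timm9. Genes of the citric acid cycle, which feeds complexes I and II, had 0.36 [0.32, 0.41], with 9 of 16 higher and 1 lower. Idh2, the NADP-dependent mitochondrial isocitrate dehydrogenase, had 1.80 [1.28, 2.35] and Pdhb, of pyruvate dehydrogenase, -0.36 [-0.58, -0.15]. Genes of glycolysis had 0.84 [0.81, 0.86], with 12 of 15 higher and 1 lower, from -0.98 [-1.27, -0.69] for the glucose transporter Slc2a3 to 2.03 [1.88, 2.18] for Tpi1.

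Carriers and assembly factors with other symbols had 0.29 [0.26, 0.33], with 11 of 22 higher and 1 lower, beside 35.5% and 29.8% of all genes. Sco2, a copper chaperone of complex IV, had 2.25 [1.70, 2.86] and Surf1, also of complex IV assembly, -0.52 [-0.69, -0.34]. Of the 18 factors of mitochondrial genome expression and biogenesis, 12 were read, 5 higher and 3 lower in the spleen. These counts were near the shares of all genes, 35.5% and 29.8%. Myc had 2.04 [1.72, 2.36], Tfam, which packs and transcribes mitochondrial DNA, 0.46 [0.22, 0.70], and Polg2, an accessory subunit of its polymerase, -1.40 [-1.85, -0.96]. Nrf1, a transcription factor of many nuclear genes of this pathway, had -0.20 [-0.45, 0.049], an interval that held 0. Ppargc1a, a coactivator of mitochondrial biogenesis, had no UMI in either library. The related coactivators Ppargc1b and Pprc1, too low to be read, had 84 and 99 UMIs in the spleen and 4 and 5 in the SI, log2 ratios of 3.40 [1.99, 5.31] and 3.32 [2.04, 4.97].

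**Figure D2:**
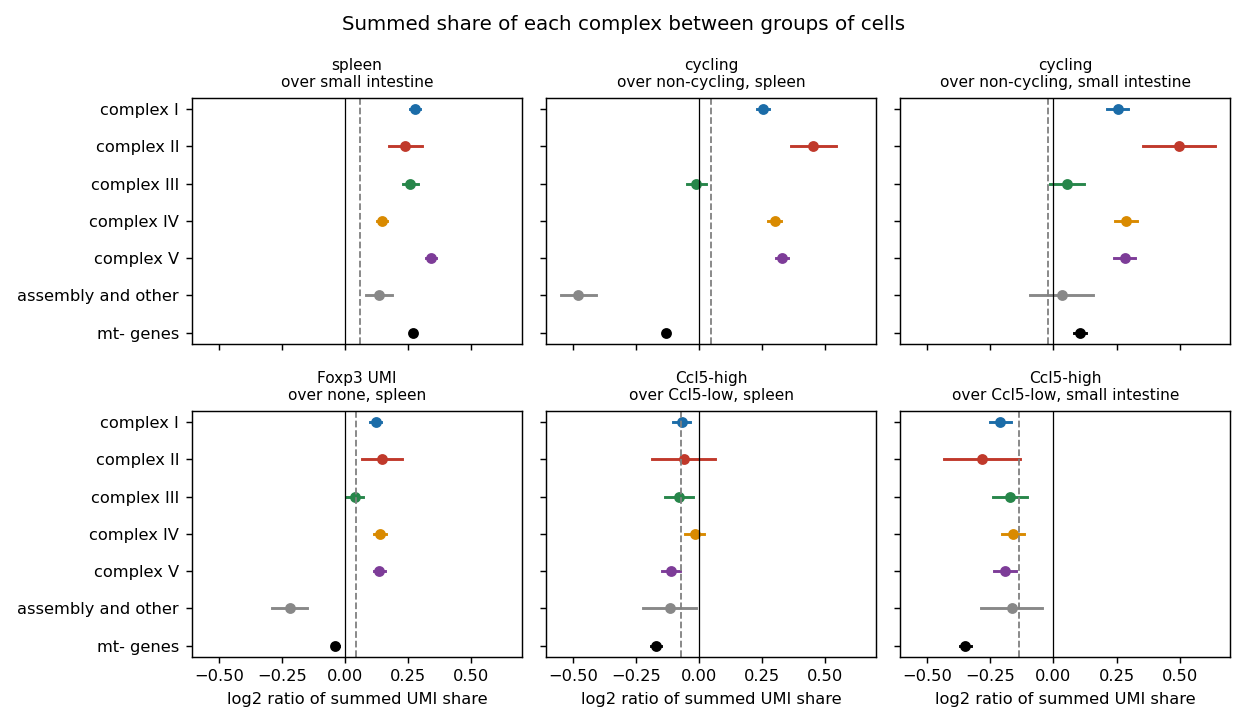
Log2 ratio of the summed UMI share of each complex, of assembly and other members and of the mt- genes in the 6 comparisons (points), with exact 95% intervals for counting error (bars). The solid line marks no difference and the dashed line the median of all genes read. All complexes lie right of 0 for spleen over SI. Complex III lies near 0 for cycling cells of both tissues, where complexes I, II, IV and V lie right of it.

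The next comparison asked how the members differed with cell division. Cells with at least 3 UMIs over 15 cycle genes were called cycling and cells with 0 non-cycling. None of the 15 is a member. The spleen had 519 cycling and 666 non-cycling cells, the SI 124 and 973. In the spleen the subunits took 2.70% of the UMIs of cycling cells and 2.26% of those of non-cycling cells, a log2 ratio of 0.26 [0.25, 0.27]. In the SI the shares were 2.40% and 2.01%, a log2 ratio of 0.25 [0.23, 0.28]. The cells between these groups lay between them in share, at 2.41% and 2.10%.

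**Figure D3:**
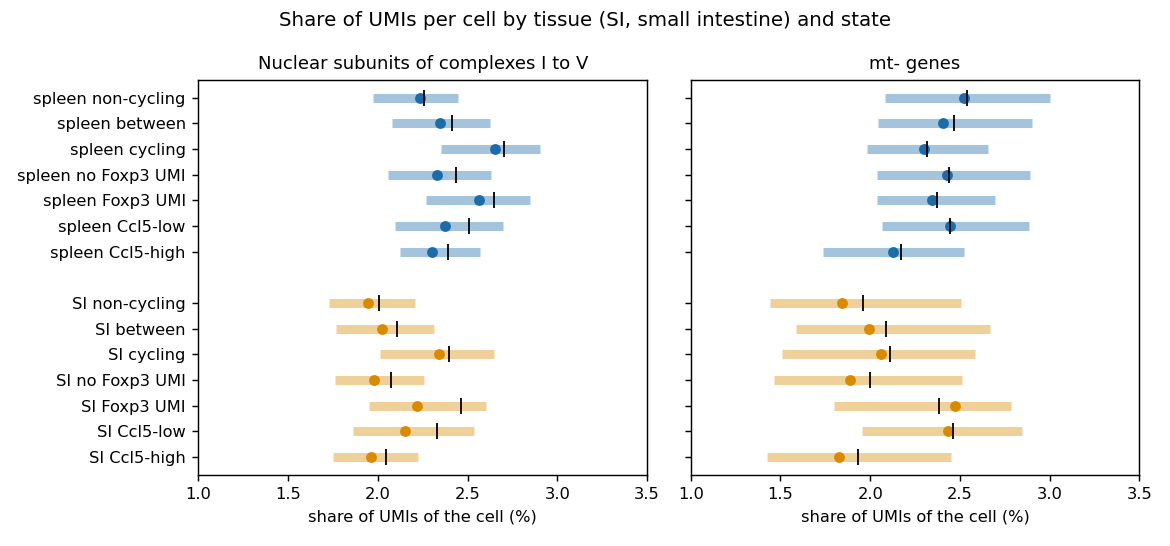
Share of a cell's UMIs taken by the nuclear subunits of complexes I to V (left) and by the mt- genes (right), in percent, by tissue and state. Points are medians over cells, thick bars run from the lower to the upper quartile and black ticks mark the share of the summed UMIs. Cycling cells lie to the right of non-cycling cells for the nuclear subunits in both tissues, and for the mt- genes to the left in the spleen and to the right in the SI.

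Depth moved with the state. The state was called on raw counts, so a deeper cell was more likely to be called cycling. With every cell thinned to 2000 UMIs, the spleen had 383 cycling and 920 non-cycling cells. Cycling cells had a median of 8811 UMIs in the spleen, against 4572 in non-cycling cells, and of 6177 against 3598 in the SI. Over 5 bins of cells ordered by UMIs, the subunit share went from 2.16% in the shallowest to 2.72% in the deepest bin of the spleen, and from 1.87% to 2.27% in the SI. Within each bin of both libraries the share was higher in cycling cells, with log2 ratios from 0.097 to 0.27 in the spleen and from 0.064 to 0.59 in the SI. The mean over the bins, each given equal weight, was 0.18 and 0.24. The 4 shallower bins of the SI held only 6 to 13 cycling cells each. The highest SI ratio, 0.59, came from the bin with 6 cycling cells, and the lowest, 0.064 [-0.052, 0.18], had an interval that held 0. The deepest SI bin, with 89 cycling cells, had 0.16 [0.13, 0.19].

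**Figure D4:**
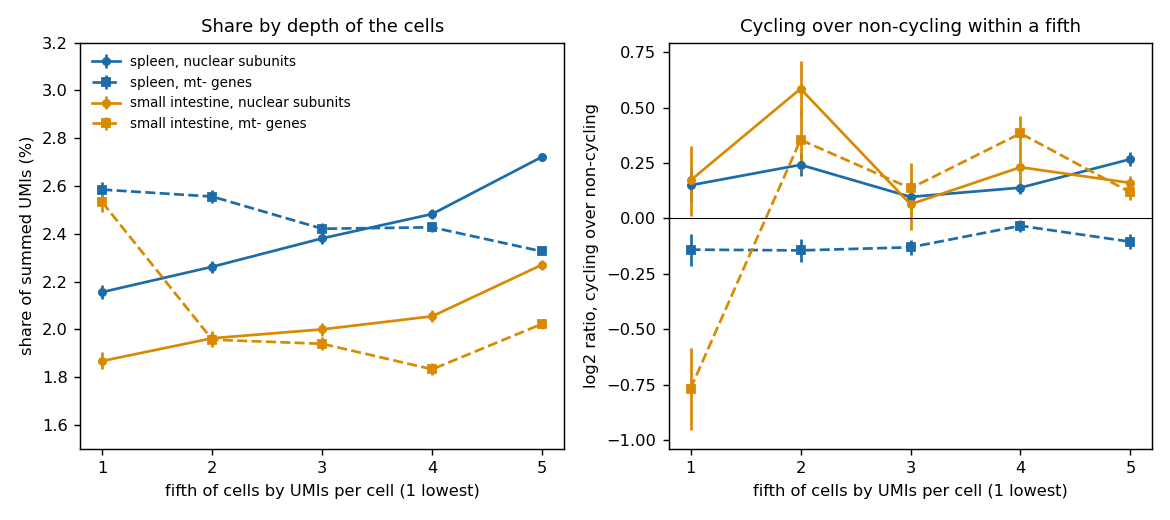
Left, share of summed UMIs (percent) of the nuclear subunits (solid) and the mt- genes (dashed) over 5 bins of cells ordered by UMIs per cell. Right, log2 ratio of that share in cycling over non-cycling cells within each bin, with exact 95% intervals for counting error. The nuclear ratios lie above 0 in each bin of both libraries, while the mt- ratios of the spleen lie below 0.

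In the spleen, 32 of 84 members read were higher in cycling cells and 6 lower, where 26.9% of all genes read were higher and 18.4% lower. In the SI, 33 of 72 were higher and 2 lower, beside 20% and 22% of all genes. The medians of the members were 0.26 and 0.28, those of all genes 0.046 and -0.021. From a ratio of 3 to 2 on, 11 members were higher in the spleen and 8 in the SI, beside 14.3% and 9.22% of all genes. Across the 72 members read in both libraries the log2 ratios had a Pearson r of 0.78 and a Spearman rho of 0.76. These libraries share no cells, and genes are not independent replicates. Over all 2240 genes read in both, r was also 0.78. In direction, 60 of the 72 members were above 0 in both libraries and 3 below 0 in both, beside 36.6% and 32.9% of the 2240 genes.

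Complex II differed most, with 0.45 [0.36, 0.54] in the spleen and 0.50 [0.35, 0.64] in the SI. Complex V had 0.33 [0.30, 0.35] and 0.28 [0.24, 0.32], complex IV 0.30 [0.27, 0.32] and 0.29 [0.25, 0.33], and complex I 0.25 [0.23, 0.28] and 0.26 [0.21, 0.30]. Complex III did not follow, at -0.011 [-0.048, 0.026] and 0.055 [-0.014, 0.12]. Of its 8 members, 6 were above 0 in the spleen and 7 in the SI, while the most abundant one was below 0 in both. This was Uqcrh, which had 733 CPM in cycling and 1077 CPM in non-cycling cells of the spleen, a log2 ratio of -0.55 [-0.62, -0.49], and 786 and 994 CPM in the SI, a log2 ratio of -0.34 [-0.46, -0.22]. Uqcr10, by contrast, had 0.36 [0.25, 0.46] and 0.56 [0.37, 0.74].

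Ndufv1, which carries the flavin site where NADH is oxidised, had 85.4 CPM in cycling and 45.0 CPM in non-cycling cells of the spleen. Its log2 ratio of 0.92 [0.65, 1.20] was the highest of the members read there. It was too low to be read in the SI, where the value was 0.86 [0.44, 1.26]. Sdhd had 128 and 75.5 CPM in the spleen, a log2 ratio of 0.76 [0.54, 0.98], and 0.79 [0.44, 1.12] in the SI. Cox5a, a nuclear subunit of complex IV, had 513 and 322 CPM, a log2 ratio of 0.67 [0.57, 0.78], and 0.68 [0.50, 0.86] in the SI. These 3 genes, each of a different complex, were higher in cycling cells of both tissues.

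In the SI, Cox7a2 had 522 CPM in cycling and 293 CPM in non-cycling cells, a log2 ratio of 0.83 [0.67, 0.995]. Ndufc1, an accessory subunit of complex I, had 0.82 [0.48, 1.14]. Atp5o, the stalk subunit known as OSCP, had 0.81 [0.60, 1.03]. Their values in the spleen were 0.49 [0.39, 0.60], 0.54 [0.36, 0.72] and 0.63 [0.51, 0.76].

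Ndufa6 was lower in cycling cells, with 198 against 306 CPM in the spleen and 269.9 against 343 CPM in the SI. The log2 ratios were -0.63 [-0.76, -0.50] and -0.35 [-0.56, -0.14]. Ndufa6 and Uqcrh were the 2 members read that were lower by the fold in cycling cells of the SI, and both were so in the spleen. Cox7a2l was lower in the spleen only, with 373 CPM in cycling and 601 CPM in non-cycling cells, a log2 ratio of -0.69 [-0.78, -0.60]. In the SI it had 0.014 [-0.14, 0.17], and the counting intervals of the 2 libraries did not overlap. Atp5sl had -0.84 [-1.33, -0.35] in the spleen and was too low to be read in the SI. Atp5d had -0.14 [-0.31, 0.023] in the SI, an interval that held 0, and 0.072 [-0.026, 0.17] in the spleen.

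The assembly and other members summed to -0.48 [-0.55, -0.41] in the spleen and 0.034 [-0.091, 0.16] in the SI. Cox7a2l held most of their UMIs. Ndufaf4, the member read that lay farthest to the side of the spleen between tissues, was lower in cycling cells of that tissue, at -0.59 [-0.83, -0.35]. Sdhaf1 had -0.37 [-0.62, -0.12]. Ndufaf2 went the other way, at 0.64 [0.17, 1.13].

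The mt- genes parted from the nuclear subunits in the spleen. Their share was 2.32% in cycling and 2.54% in non-cycling cells, a log2 ratio of -0.13 [-0.14, -0.12]. In the SI it was 2.11% and 1.96%, a log2 ratio of 0.10 [0.081, 0.13]. In the spleen the ratio was below 0 in each of the 5 depth bins. In the SI it was above 0 in 4 bins and below 0 in the shallowest, which held 8 cycling cells. Of the single genes, mt-Co1, the catalytic subunit of complex IV, was lower in cycling cells of both tissues, at -0.34 [-0.37, -0.31] and -0.11 [-0.16, -0.057]. mt-Nd4l, a subunit of complex I, had 0.17 [-0.04, 0.39] and 0.43 [0.026, 0.82].

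The subunits had 1.17 [1.16, 1.18] UMIs for each mt- UMI in cycling cells of the spleen and 0.889 [0.88, 0.898] in non-cycling cells. In the SI the values were 1.14 [1.11, 1.16] and 1.02 [1.01, 1.03]. The cells removed for a high mitochondrial share had 0.239 [0.233, 0.246] in the spleen and 0.292 [0.283, 0.301] in the SI. A low ratio was set by the filter that chose them. Their nuclear subunit share was 2.08% and 1.91%, below that of the cells kept. The removed cells were also shallow, with medians of 2728 and 1652 UMIs per cell.

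**Figure D5:**
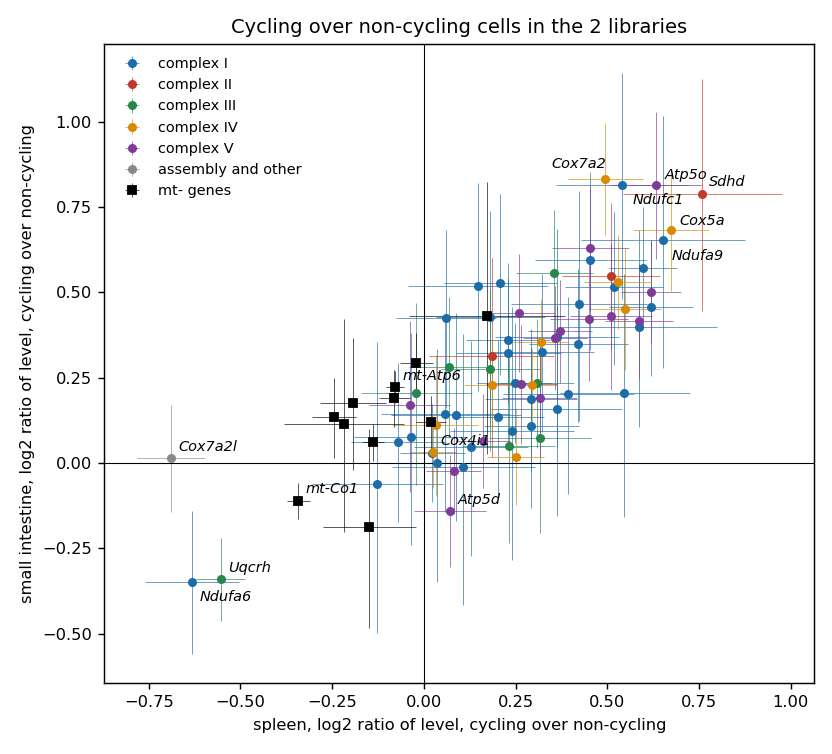
Log2 ratio of the level in cycling over non-cycling cells for each member (circles) and mt- gene (squares) read in both libraries, in the spleen (horizontal) and in the SI (vertical), with exact 95% intervals for counting error. Most members lie in the upper right. Ndufa6 and Uqcrh lie in the lower left, Cox7a2l is below 0 in the spleen only, and most mt- genes lie left of 0.

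Genes of cytosolic ribosomal proteins were lower in cycling cells of the spleen, at -0.36 [-0.36, -0.36], and nearly level in the SI, at -0.035 [-0.043, -0.027]. Over the UMIs left without them and the mt- genes, the subunit log2 ratio was 0.12 in the spleen, with 19 members higher and 7 lower beside 18.9% and 28.7% of all genes, and 0.25 in the SI. By the phases that cyclone assigned, S phase cells had the highest subunit share, 2.84% in the spleen (51 cells) and 2.46% in the SI (14 cells). G2/M cells had 2.50% and 2.16%, and G1 cells 2.47% and 2.07%. The log2 ratio of S or G2/M over G1 was 0.068 in the spleen (234 over 1414 cells) and 0.093 in the SI (75 over 1264 cells). Fewer cells were thus in S or G2/M by cyclone than the 519 and 124 called cycling by the cycle genes. The CD8 markers had 771 CPM in cycling and 250 CPM in non-cycling cells of the SI, and without cells with a UMI of either gene the subunit log2 ratio there was 0.26.

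Lists of neighbouring pathways differed with cycling to different degrees. The citric acid cycle had 0.28 [0.22, 0.34] in the spleen, with 9 of 16 higher and 1 lower, and 0.31 [0.21, 0.42] in the SI, with 3 of 6 higher. Of all genes read, 26.9% were higher and 18.4% lower in the spleen, and 20% higher and 22% lower in the SI. Cs, citrate synthase, had 0.68 [0.44, 0.93] in the spleen, where Suclg1, of succinyl-CoA ligase, had -0.58 [-0.79, -0.37]. Idh3g, of the NAD-dependent isocitrate dehydrogenase, had 0.93 [0.59, 1.26] in the SI. Glycolysis had 0.25 [0.23, 0.27] and 0.13 [0.073, 0.18]. Mitochondrial ribosomal proteins had 0.17 [0.14, 0.19] and 0.20 [0.15, 0.25]. Genes of import had 0.023 [-0.017, 0.063] in the spleen, an interval that held 0, and 0.15 [0.069, 0.23]. Among carriers and assembly factors with other symbols, Atpif1, the inhibitor of ATP hydrolysis by complex V, had 1.34 [1.13, 1.55] and 1.41 [1.17, 1.65]. Its ratio exceeded that of each member read in both tissues, while Uqcc3, of complex III assembly, had -0.69 [-0.88, -0.49] in the spleen and Cox14, of complex IV assembly, -0.57 [-0.92, -0.24] in the SI. Tfam had 0.35 [0.06, 0.64] and Myc -0.57 [-0.82, -0.32] in the spleen.

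All 96 members were placed on GRCm38 as protein-coding genes, on 19 chromosomes. RefSeq promoters (GRCm38.p6) were held for 77 of them. The 250 bases before the start were searched on both strands for the letters GCGCATGC of the NRF1 motif, CCGGAAGT of the ETS motif that GABP binds, and AAGATGGC of YY1. A gene with several promoters was counted once. The NRF1 letters lay in a promoter of 9 of the 77 members, or 11.7%. They did so in 3.26% of the 17999 genes of the tables with a promoter and in 0 of 66 cytosolic ribosomal protein genes. The ETS letters lay in a promoter of 3.90% of the members and 4.18% of all these genes, and the YY1 letters of 1.30% and 1.81%. A match is a description of the letters and not of binding. The 9 were Atp5g2, Atp5k, Atp5l, Cox6a1, Ndufa11, Ndufa6, Ndufa8, Ndufaf4 and Sdhb. They include Ndufaf4 and Ndufa6, at opposite ends between the tissues.

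The promoters of 4 members follow, chosen since the results turn on these genes, with the matches in capitals, 5′ to 3′ on the gene's strand and without bases inside the GENCODE model. Ndufaf4 has the highest ratio of spleen over SI among the members read, and Ndufa6 and Uqcrh are lower in cycling cells. Cox6a1 is higher in cycling cells of both tissues (0.55 [0.45, 0.65] and 0.45 [0.27, 0.63]). They lie at chr4:24897833-24898082 on the plus strand (Ndufaf4, 250 bases), chr15:82354323-82354541 on the minus strand (Ndufa6, 219 bases), chr5:115348982-115349208 on the minus strand (Cox6a1, 227 bases) and chr4:116075072-116075320 on the minus strand (Uqcrh, 249 bases).
Ndufaf4: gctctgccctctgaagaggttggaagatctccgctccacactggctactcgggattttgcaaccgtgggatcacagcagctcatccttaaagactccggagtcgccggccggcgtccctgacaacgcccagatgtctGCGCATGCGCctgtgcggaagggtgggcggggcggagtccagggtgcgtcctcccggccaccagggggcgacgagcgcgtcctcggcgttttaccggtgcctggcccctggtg
Ndufa6: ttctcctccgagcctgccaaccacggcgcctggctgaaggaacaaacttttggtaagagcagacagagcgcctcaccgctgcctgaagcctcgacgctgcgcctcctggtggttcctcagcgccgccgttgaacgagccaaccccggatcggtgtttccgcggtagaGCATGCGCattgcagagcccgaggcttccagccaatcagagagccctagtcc
Cox6a1: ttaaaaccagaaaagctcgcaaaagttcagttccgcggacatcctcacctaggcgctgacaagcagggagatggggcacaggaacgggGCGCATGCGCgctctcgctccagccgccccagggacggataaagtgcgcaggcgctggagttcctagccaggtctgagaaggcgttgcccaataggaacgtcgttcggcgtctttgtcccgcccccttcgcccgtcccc
Uqcrh: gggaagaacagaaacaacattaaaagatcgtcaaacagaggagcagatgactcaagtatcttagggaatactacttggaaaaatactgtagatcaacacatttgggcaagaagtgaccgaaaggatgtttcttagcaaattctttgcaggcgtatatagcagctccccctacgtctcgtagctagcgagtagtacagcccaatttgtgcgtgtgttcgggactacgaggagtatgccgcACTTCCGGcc
In Ndufaf4 and Cox6a1 the NRF1 letters of both strands overlap to a palindrome, which ends 103 and 152 bases before the start. In Ndufa6 they stand once, 75 bases before it. Uqcrh has no NRF1 letters, and the ETS letters end 3 bases before its start. These distances run to the RefSeq start, which lies past the printed bases where a stretch inside the GENCODE model was left out. Of these 4 genes, Ndufa6 and Cox6a1 both hold NRF1 letters and differed in direction with cycling.

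Foxp3 is the lineage factor of regulatory T cells. In the spleen, 337 cells had a Foxp3 UMI and 1311 had none. In the SI only 29 had one, too few for single members, with a subunit share of 2.46% against 2.07%. Of these 29 cells, 3 were cycling and held 38390 of the 156171 UMIs, and the part of division and depth in these SI shares was not tested. In the spleen the shares were 2.65% and 2.44%, a log2 ratio of 0.12 [0.11, 0.13]. Of 84 members read, 5 were higher and 1 lower, beside 14.8% and 10.7% of all genes read. With at least 200 expected UMIs, 4 of 73 were higher and 1 lower, beside 13.1% and 6.59%. The share of members past the fold was thus smaller than that of all genes either way. The median log2 ratio of the members was 0.14 and that of all genes 0.044.

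Of the members read, Ndufa10 was highest, with 128 CPM in cells with a Foxp3 UMI and 99.0 CPM in cells without, a log2 ratio of 0.37 [0.19, 0.55]. Ndufs5 had 0.36 [0.20, 0.52] and Ndufa9 0.36 [0.16, 0.55]. All of these are subunits of complex I. Cox7a2l was lowest, with 392.04 and 519.6 CPM, a log2 ratio of -0.41 [-0.50, -0.31]. Atp5sl had -0.31 [-0.83, 0.18] and Ndufa6 -0.27 [-0.40, -0.14]. The last 3 were also low in cycling cells of the spleen. Complexes IV, V and I had 0.14 [0.12, 0.16], 0.14 [0.11, 0.16] and 0.12 [0.10, 0.14], complex II 0.15 [0.067, 0.23] and complex III 0.038 [0.0026, 0.073]. The mt- genes had -0.038 [-0.05, -0.025]. Of these, mt-Nd2 had -0.18 [-0.27, -0.09] and mt-Atp8 0.075 [-0.17, 0.31].

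The groups also differed in division and depth. A deeper cell was more likely to show a Foxp3 UMI, since raw counts were used. Cells with a Foxp3 UMI had a median of 8036 UMIs, against 5247 in the others, and 174 of the 337 were cycling, against 345 of 1311. Among non-cycling cells the shares were 2.33% and 2.24%, a log2 ratio of 0.054. Within the depth bins the mean log2 ratio was 0.032. Relative to the median of all genes 1 member was higher and 2 lower, beside 11.4% and 13% of all genes. The citric acid cycle had 0.23 [0.17, 0.28], led by Fh1, fumarase, at 0.60 [0.33, 0.86], with Suclg1 at -0.26 [-0.47, -0.049]. Glycolysis had 0.20 [0.18, 0.22], import 0.16 [0.12, 0.19] and mitochondrial ribosomal proteins 0.12 [0.10, 0.15].

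Ccl5 encodes a chemokine of effector T cells, and its level split the cells into a high and a low state. The threshold, 28.2 Ccl5 UMIs per 10000 UMIs of a cell, was set by Otsu's method over both libraries. The spleen had 187 Ccl5-high and 1461 Ccl5-low cells, the SI 1160 and 179, with 79 and 69 cells within 2-fold of the threshold. In the spleen the subunits took 2.39% of the UMIs of Ccl5-high and 2.51% of those of Ccl5-low cells, a log2 ratio of -0.069 [-0.088, -0.051]. The median of all genes read was -0.0703. In the SI the shares were 2.04% and 2.33%, a log2 ratio of -0.19 [-0.21, -0.17], where the median of all genes was -0.14. From the shallowest to the deepest depth bin, the spleen ratio was 0.032, 0.059 [0.012, 0.11], -0.0089, -0.049 and -0.11, so its sign changed. The SI ratio was -0.0058 [-0.079, 0.068], -0.051 [-0.12, 0.018], -0.10, -0.25 and -0.24.

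In the spleen, 0 of 76 members read were higher in Ccl5-high cells and 5 lower, beside 11.6% and 21.9% of all genes read. In the SI, 0 of 72 were higher and 23 lower, beside 13.5% and 28.2%. The share of members lower was thus near that of all genes there, while no member was on the other side. Relative to the median of all genes, 1 member was higher and 7 lower in the SI, beside 19.5% and 16.3% of all genes. Over the UMIs left without ribosomal and mt- genes, 11 members were lower in the spleen and 28 in the SI, beside 30.6% and 33.6% of all genes.

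Of the members read in the spleen, Ndufaf4 was lowest, with 44.1 CPM in Ccl5-high and 74.2 CPM in Ccl5-low cells, a log2 ratio of -0.75 [-1.21, -0.32]. Ndufab1, the mitochondrial acyl carrier protein, had -0.61 [-0.91, -0.32] and Ndufs7, an iron-sulfur subunit of complex I, -0.50 [-0.83, -0.19]. At the other end, Ndufs4 had 0.13 [-0.12, 0.37], Ndufb8 0.13 [-0.051, 0.31] and Ndufa13 0.10 [-0.02, 0.22], all with intervals that held 0. In the SI, Ndufc1 had 76.7 CPM in Ccl5-high and 126 CPM in Ccl5-low cells, a log2 ratio of -0.72 [-1.05, -0.38]. Ndufs5 had -0.68 [-0.95, -0.40] and Ndufa4 -0.63 [-0.80, -0.45]. Ndufa13 had 0.24 [0.085, 0.39], the only member read there with an interval wholly above 0, and Ndufb9 0.17 [-0.077, 0.43] and Ndufa11 0.12 [-0.14, 0.38].

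By complex, the SI had -0.28 [-0.43, -0.13] for complex II, -0.21 [-0.25, -0.17] for complex I, -0.19 [-0.23, -0.15] for complex V, -0.17 [-0.24, -0.10] for complex III and -0.16 [-0.20, -0.12] for complex IV. In the spleen these were -0.061 [-0.19, 0.064], -0.069 [-0.10, -0.035], -0.11 [-0.15, -0.076], -0.079 [-0.13, -0.024] and -0.018 [-0.055, 0.019]. In sum, the mt- genes were lower in Ccl5-high cells of both tissues and by more than the nuclear subunits, at -0.17 [-0.19, -0.15] in the spleen and -0.35 [-0.37, -0.33] in the SI. Of the 5 depth bins, this ratio was below 0 in all 5 of the spleen and in 4 of the SI. The shallowest SI bin had 0.045 [-0.018, 0.11]. mt-Nd3 had -0.56 [-0.79, -0.34] in the spleen and mt-Nd2 -0.65 [-0.83, -0.48] in the SI, while mt-Co1 had 0.0012 [-0.045, 0.047] and -0.19 [-0.24, -0.14]. The ratio of nuclear to mt- UMIs was 1.06 [1.05, 1.07] in Ccl5-high and 0.947 [0.927, 0.966] in Ccl5-low cells of the SI.

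The SI's Ccl5-high cells also carried nearly all CD8 marker UMIs, 432 CPM against 9.03 CPM in Ccl5-low cells. Without cells with a Cd8a or Cd8b1 UMI the subunit log2 ratio was -0.23 there. Handling stress genes had 2976 CPM in Ccl5-high and 4277 CPM in Ccl5-low cells, and their part was not tested. Among non-cycling cells the log2 ratio was -0.14 in the SI and -0.024 in the spleen. Glycolysis was lower too, at -0.19 [-0.23, -0.15] in the spleen and -0.31 [-0.36, -0.26] in the SI, with Eno1, enolase, at -1.01 [-1.17, -0.84] in the latter. The citric acid cycle had -0.13 [-0.22, -0.046] and -0.23 [-0.34, -0.13], mitochondrial ribosomal proteins -0.20 [-0.24, -0.16] and -0.32 [-0.36, -0.27], and import -0.29 [-0.36, -0.23] and -0.34 [-0.42, -0.26]. Cycs, cytochrome c, the electron carrier between complexes III and IV, had -0.53 [-0.71, -0.35] and -0.48 [-0.73, -0.21].

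In single cells the variance of the subunit UMIs, given each cell's depth, was 4.82 times that of counting alone in the spleen and 3.14 times in the SI. For the mt- genes the values were 9.93 and 11.6, and for cytosolic ribosomal proteins 106 and 31.0. The index grows with the total level of a group, which was similar for subunits and mt- genes and far higher for the ribosomal proteins. The share of complexes I to III in a cell had a Spearman rho of 0.56 with that of complexes IV and V over the 1648 cells of the spleen and of 0.41 over the 1339 of the SI. Both shares have the same denominator and both follow depth.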

How the data were processed

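IL-10eGFP-positive CD4+ T cells of spleen and small intestine (SI) were profiled with 10x Genomics Chromium, 1 library per tissue. The deposited values are UMI counts per gene and cell barcode, which the authors made by trimming reads with Trimmomatic and by alignment to mm10 and counting with Cell Ranger. The submitters' processing notes also name mm8, and its use was not given in the sources used here.

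Cells were removed whose log UMIs or log genes lay low, or whose mitochondrial share lay high, by over 3 median absolute deviations. The study's methods state a like filter and also removed G2/M cells called by cyclone, which were kept here because cycling cells are compared, so the cells kept differ from the study's. UMIs were summed per group of cells. Levels are counts per 1000000 UMIs (CPM) with exact Poisson 95% intervals, and log2 ratios have exact conditional binomial ones. With 1 library per tissue no test was run and no p-value is given. Cycling cells had at least 3 UMIs over 15 cycle genes and non-cycling cells 0, and phases were also called with cyclone (scran 1.30.0, R 4.3.3). Other steps used Python 3.11.15, numpy 2.4.6, scipy 1.17.1 and pandas 2.3.3. The steps were tested on simulated data. No doublet caller was run, and cells of very high UMI count were left out as an alternative.

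The members, lists and comparisons were chosen with earlier results of these data known. Named were the 3 most abundant members per complex, the 5 highest and 5 lowest ratios between tissues, the 3 at each end of the other comparisons, sets of isoforms, and members at the 2 ends of neighbouring lists, of which some are not reported here. Members named beyond this, such as Uqcr10, Cox6a1 and Ndufaf4 with cycling, were chosen after their values were seen. Promoters came from RefSeq (GRCm38.p6). Symbols were taken as the count tables give them.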

Additional observations from a re-analysis of the deposited data

Results flagged for a closer look

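The mt- genes differed between cycling and non-cycling cells in opposite directions in the 2 tissues. Their summed log2 ratio was -0.13 in the spleen and 0.10 in the SI. As a mean over the 5 depth bins it was -0.11 and 0.045, and the SI bins ran from -0.77 to 0.38. The single genes with intervals wholly on opposite sides of 0 were mt-Atp6, with -0.078 in the spleen and 0.22 in the SI, mt-Co3, with -0.14 and 0.061, mt-Nd4, with -0.25 and 0.13, and mt-Cytb, with -0.081 and 0.19. The difference between the tissues was not tested, since each tissue has 1 library. The handling stress genes had 2196 CPM in cycling and 3439 CPM in non-cycling cells of the SI. In the spleen they had 1004 and 1328 CPM, the same direction. Their part in these values was not tested. The CD8 markers had 771 CPM in cycling and 250 CPM in non-cycling cells of the SI, and their part was not tested either.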

How the results depend on the processing

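The log2 ratio of the subunit share, 0.26 between the tissues, was 0.23 with every cell thinned to 2000 UMIs, 0.39 over UMIs without mt- and cytosolic ribosomal genes, 0.20 relative to the median of all genes read, 0.24 as a mean share per cell, 0.28 without cells with a Cd8a or Cd8b1 UMI, 0.27 in cells of middle depth and 0.17 without cycle gene UMIs. For cycling cells of the spleen, the value of 0.26 was 0.20, 0.12 and 0.21 under the first 3 of these, 0.14 at middle depth, 0.068 with the phases of cyclone and 0.18 as a mean over the depth bins. For cycling cells of the SI, 0.25 was 0.22 without cells of very high UMI count, 0.15 at middle depth and 0.093 with cyclone. Its mean over the depth bins, 0.24, gave each bin equal weight, while the deepest bin, with 89 cycling cells, had 0.16. For Foxp3, 0.12 was 0.044 thinned, 0.084 without mt- and ribosomal genes, 0.077 relative to the median, 0.030 at middle depth, 0.054 without cycle gene UMIs, 0.14 with at least 2 Foxp3 UMIs and 0.032 over the depth bins. For Ccl5 in the spleen, -0.069 was -0.028 thinned, -0.16 without mt- and ribosomal genes, -0.042 as a mean per cell, -0.024 without cycle gene UMIs and -0.016 over the depth bins, and it changed sign relative to the median of all genes (0.00092) and at middle depth (0.0024). For Ccl5 in the SI, -0.19 was -0.13 thinned, -0.24 without mt- and ribosomal genes, -0.051 relative to the median, -0.13 as a mean per cell, -0.15 without cells of very high UMI count, -0.23 without Cd8 cells, -0.12 at middle depth, -0.14 without cycle gene UMIs and -0.13 over the depth bins. Middle depth was set within each library, so the value of 0.27 between the tissues was not matched for depth. The middle of the 5 depth bins had a median of 5728 UMIs in the spleen and 3754.5 in the SI. The cause of these shifts was not tested. The other settings (no filter on cells, for example) moved these values by less than their counting intervals. The depth bins, the place of Ndufa4 and the member counts under other scalings were chosen after seeing the data. Of the members, 14 of 86 were higher and 2 lower in the spleen from a ratio of 3 to 2 on, beside 23.5% and 18.6% of all genes, so that the members' share was below that of all genes in both directions. With cycling these counts were 11 and 4 of 84 in the spleen (14.3% and 6.61% of all genes) and 8 and 0 of 72 in the SI (9.22% and 8.87%). They were 0 and 0 with Foxp3 (3.32% and 4.04%), and with Ccl5 0 and 2 in the spleen (3.2% and 7.28%) and 0 and 3 in the SI (7.27% and 10.5%). Relative to the median of all genes, 27 members were higher and 6 lower in cycling cells of the spleen (23.6% and 21.5% of all genes) and 35 and 1 in the SI (21.7% and 20.1%). With Ndufa4 counted in complex IV, the log2 ratio between the tissues was 0.24 for complex I and 0.19 for complex IV. No paired analysis was possible because each tissue has 1 library and no result comes from a test. Depth limits the scarce members most, and those with under 50 expected UMIs per group were not read.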
